A study of Mus musculus with 12 samples.

Results

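Collagen chain genes encode the α chains that wind into the collagen triple helix, and they were taken as all genes whose single gene symbol had the form Col, a type number, the letter a and a chain number. There were 42 such genes among 18193 genes that a probe set named alone, and they were read by 82 of the 45101 probe sets. The fibrillar class held 11 genes, the basement membrane class the 6 Col4a genes, and the remaining 25 genes were of other types. RNA came from mouse kidney or from a universal mouse reference RNA. Kidney RNA was a commercial preparation, measured at 10 ng of input on 3 arrays. The reference, labelled as coming from "Strategene", was measured at 10, 3 and 0.3 ng on 3 arrays each, which gave 12 arrays in 4 groups. The series title places the arrays in a comparison of ways to amplify nanogram amounts of RNA, and these samples carry the code pRS, whose meaning is not given in the sources used here. No genotype, strain, age or treatment is given for either RNA in the sources used here.

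A collagen molecule is a trimer of α chains, and each tissue assembles a restricted choice of chains. Fibrillar collagens form the tensile fibres of connective tissue and are made mostly by fibroblasts and other mesenchymal cells, while type IV collagen forms the sheet-like network of basement membranes. In the mature glomerulus the network of the α3, α4 and α5 chains is the filtering basement membrane, and defects in these chains cause Alport syndrome. As background on the samples, universal reference RNA of this kind is pooled from cultured cell lines and is no tissue, whereas kidney RNA mixes tubule, vessel, glomerular and interstitial cells. Nothing in the labels says whether the 3 arrays of a group came from separate extracts, so the p-values measure the spread between these arrays, which may be technical.

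Signals were scaled to the same trimmed mean of 500 on each array. Median signals were 56.6 to 59.6 on the kidney arrays and 67.9 to 71.2 on the reference arrays at 10 ng. Over the tested collagen genes the median SD of the log2 signal was 0.22 in kidney and 0.17, 0.27 and 0.48 in the reference as input fell from 10 to 3 to 0.3 ng. A signal below 33.65, the level that 95% of the signals of 27 Bacillus controls stay under, is called below background here. Kidney tubule markers, such as the uromodulin gene, summed to between 33372 and 34275 in kidney and to between 116 and 146 in the reference at 10 ng, and 6 of 6 were higher in kidney. Endothelial markers summed to between 7845 and 8295 against 1124 to 1211 and were also higher in 6 of 6. Of all genes tested, 27.1% were called higher in kidney at 10 ng.

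The first question was how collagen gene expression differed between kidney and reference RNA at the same input. Of the 42 genes, 28 passed the filter on low signals and were tested, which are 7 of 11 fibrillar, 6 of 6 basement membrane and 15 of 25 other genes. In kidney 15 of the 28 were lower and 7 were higher, at an adjusted p below 0.05 by limma. The filter passed a gene on its highest group mean. Among genes called higher, Col4a3, Col14a1 and Col15a1 had mean signals under the filter level of 65.4 in all reference groups. They passed through kidney alone, the group where they are high. Col13a1 had such means in the reference at 10 and 3 ng. Col4a6, Col5a3, Col8a2, Col12a1, Col16a1 and Col20a1, called lower, had kidney means under that level and passed through reference arrays alone. Over all 12820 genes tested, 35.6% were called lower and 27.1% higher, 62.7% in either direction, while the 28 collagen genes stood at 53.6% lower, 25.0% higher and 78.6% in either direction. The median log2 difference, kidney minus reference, was −1.49 over the tested collagen genes and −0.19 over all genes tested, and with signals below background raised to it the collagen median was −1.17. By class, 6 of 7 tested fibrillar genes were lower and 0 higher (median difference −2.62). Of the 6 basement membrane genes 4 were higher and 1 lower (median 0.66), and of 15 tested genes of other types 8 were lower and 3 higher (median −1.64). The 3 kidney arrays lay wholly above or wholly below the 3 reference arrays for 24 of the 28 genes, 85.7% against 73.2% of all genes tested. Arrays centred on their medians or quantile normalized gave 9 collagen genes higher and 14 lower. The ratio of 3′ to 5′ signal of the actin control was 5.25 to 5.50 on the kidney arrays and 3.62 to 3.94 on the reference arrays at 10 ng, while that of Gapdh was 1.12 to 1.13 and 1.10 to 1.15, and the part of this in the collagen differences was not tested. In RNA from a whole organ or a pool, fewer cells of a type and less RNA per cell cannot be told apart.

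**Figure D1:**
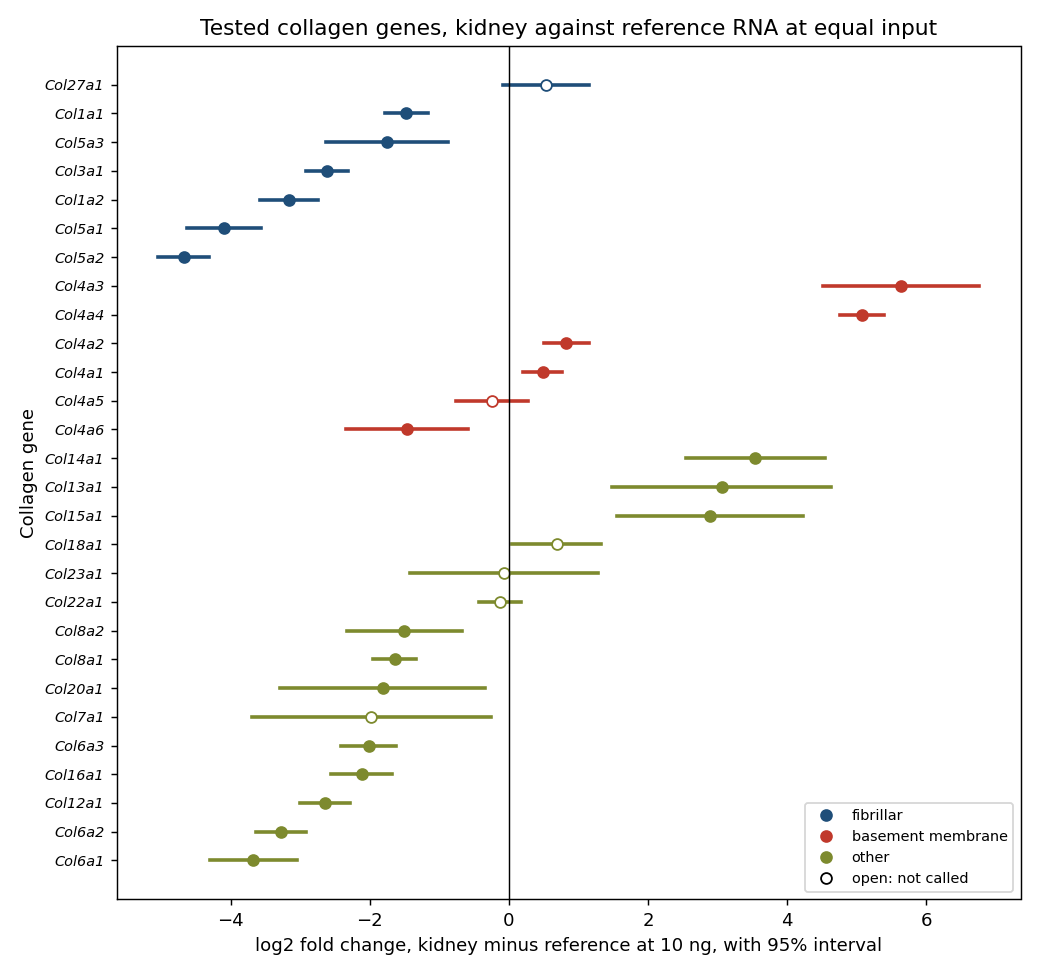
Log2 fold change of the 28 tested collagen genes, kidney minus reference at 10 ng (x axis), 1 gene per line and coloured by class, with points for limma's estimate and bars for its 95% interval. Open points were not called. Fibrillar genes lie from −4.67 to 0.53, basement membrane genes from −1.47 to 5.64. The estimates for Col13a1, Col14a1 and Col7a1 have 1 group below background and depend on the pseudocount.

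Among the basement membrane genes, the α3 and α4 chains differed most. Col4a3, which encodes the α3 chain of type IV collagen, the chain that carries the Goodpasture autoantigen, had signals of 1718.6, 1604.6 and 1593.9 on the kidney arrays and of 59.7, 27.7 and 13.9 on the reference arrays at 10 ng. The kidney arrays were far above the reference arrays, of which 2 were below background. The means were 1639 ± 69.1 and 33.8 ± 23.5 (SD, n = 3 each). The log2 difference was 5.64 with an SE of 0.46 (limma, adjusted p = 0.000239), or 5.33 with the reference signals raised to background. Col4a4, which encodes the partner chain α4, had 2707.8, 2844.9 and 2688.7 in kidney and 69.8, 82.6 and 82.4 in the reference, and all 3 reference arrays were above background. Its log2 difference was 5.07 with an SE of 0.13, a 33.6-fold higher level (adjusted p = 6.98e-06).

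Col4a1 and Col4a2 encode the α1 and α2 chains, which form the network found in nearly all basement membranes, and both were higher in kidney by far less. Col4a2 had 1864.6, 2011.0 and 1867.8 in kidney and 1200.8, 1039.4 and 1004.2 in the reference, a log2 difference of 0.83 with an SE of 0.13 (adjusted p = 0.00299). Col4a1 had 1582.4, 1730.5 and 1622.2 in kidney and 1176.9, 1183.1 and 1152.8 in the reference, a log2 difference of 0.49 with a 95% interval of 0.21 to 0.77 (adjusted p = 0.0128). Neither gene's kidney arrays overlapped its reference arrays. The Col4a1 call was lost with no filter on low signals (adjusted p = 0.0606), with all arrays in 1 fit (0.0832) and with the replicate number as a block (0.0514).

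The remaining chains, α5 and α6, did not follow. Col4a5, which encodes the chain that joins α3 and α4 and is X-linked, had 2585.1, 2509.3 and 2341.8 in kidney and 3090.6, 2214.4 and 3663.4 in the reference. The groups overlapped, and the log2 difference of −0.24 had a 95% interval of −0.76 to 0.28 (adjusted p = 0.358). Its value was 0.0026 with arrays centred on their medians, and −0.43 and called lower with the mean of its probe sets (adjusted p = 0.0197). Col4a6, which encodes the α6 chain, was dim, with 40.1, 14.7 and 17.8 in kidney, where 2 arrays were below background, and 59.7, 84.4 and 62.7 in the reference. It was lower in kidney by a log2 difference of −1.47 (adjusted p = 0.0149), or −0.93 with signals raised to background, and the call was lost without replicate 2 of the reference (adjusted p = 0.0536). So of the trio that forms the glomerular network, α3 and α4 were higher in kidney while α5 was not called different. Podocyte markers, from the cell that lays down that network, summed to between 4839 and 5469 in kidney and to between 2207 and 2470 in the reference. Of 3 tested, 1 was higher and 1 lower, beside 27.1% higher and 35.6% lower over all genes tested. Podxl was higher, with means of 3120 and 341, and makes up most of the kidney sum. Wt1 was lower, with means of 817 and 1325, Synpo was not called and Nphs1 was not tested. The part of podocytes in the α3 and α4 result was not tested.

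**Figure D2:**
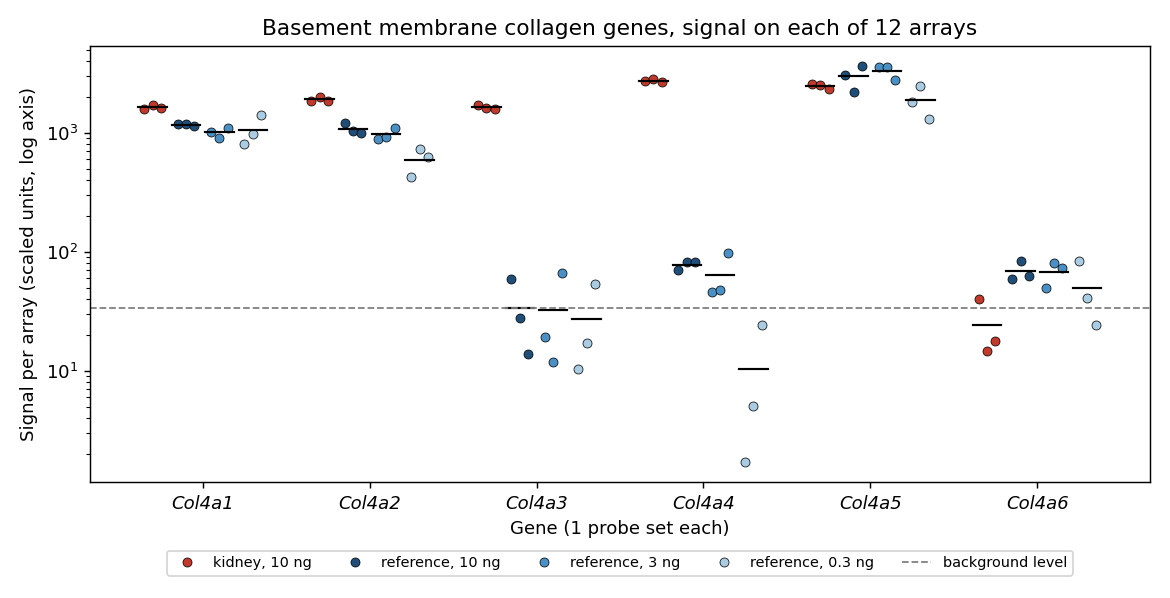
Signal on each array (log axis, scaled units) for the 6 basement membrane genes, with points coloured by RNA and input, black lines for the group means of 3 arrays and a dashed line at the background level of 33.65. Col4a3 and Col4a4 lie above 1590 on the kidney arrays and below 100 on the 9 reference arrays, while the Col4a5 points of kidney and reference at 10 ng overlap.

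Promoter windows of 250 bases before to 50 bases after the start are shown for Col4a1, Col4a2 and Col4a4. These type IV genes were called higher in kidney, by unlike amounts. The windows are from RefSeq on GRCm38.p6, and 33 of the 42 collagen genes matched that table, which holds no window for Col4a3. Letters in capitals mark matches, on either strand, to the NF-Y core motif CCAAT, to the Sp1 core motif GGGCGG or to the TATA box motif TATAAA. The Col4a1 window lies at chr8:11312777-11313076 on the minus strand and the Col4a2 window at chr8:11312555-11312854 on the plus strand. The windows share 78 bases, and the genes are read away from each other, an arrangement for which this pair is known. The Col4a4 window lies at chr1:82586800-82587099 on the minus strand.
Col4a1: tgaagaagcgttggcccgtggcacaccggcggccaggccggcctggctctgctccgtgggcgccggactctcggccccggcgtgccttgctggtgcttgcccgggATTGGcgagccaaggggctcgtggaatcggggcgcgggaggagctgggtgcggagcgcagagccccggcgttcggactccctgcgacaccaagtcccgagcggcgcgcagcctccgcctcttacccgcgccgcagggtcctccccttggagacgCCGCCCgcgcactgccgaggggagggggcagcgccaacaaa
Col4a2: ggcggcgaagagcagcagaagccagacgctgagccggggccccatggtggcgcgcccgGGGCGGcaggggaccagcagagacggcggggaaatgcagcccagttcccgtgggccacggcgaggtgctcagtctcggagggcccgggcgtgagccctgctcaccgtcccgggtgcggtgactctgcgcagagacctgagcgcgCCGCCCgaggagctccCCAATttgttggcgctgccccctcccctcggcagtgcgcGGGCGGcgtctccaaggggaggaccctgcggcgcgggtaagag
Col4a4: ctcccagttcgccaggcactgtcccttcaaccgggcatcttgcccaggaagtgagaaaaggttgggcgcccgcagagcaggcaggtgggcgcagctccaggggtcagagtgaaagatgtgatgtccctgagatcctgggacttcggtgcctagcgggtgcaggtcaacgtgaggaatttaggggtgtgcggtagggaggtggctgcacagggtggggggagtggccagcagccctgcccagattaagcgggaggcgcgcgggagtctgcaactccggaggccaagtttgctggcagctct
Col4a1 held 1 CCAAT and 1 GGGCGG match, Col4a2 held 1 and 3, and Col4a4 held none of the 3 motifs in this window. The GGGCGG match of Col4a1 and 1 of the 3 of Col4a2 are the same site in the 78 shared bases, counted for both genes. No motif holds the letters of another. Over all 32851 promoter windows of the same length, 37.4% held CCAAT, 35.7% held GGGCGG and 13.6% held TATAAA. Of the 33 collagen genes matched, 13 had a window with CCAAT (39.4%), 21 with GGGCGG (63.6%) and 5 with TATAAA (15.2%). These shares were counted by gene and those over all promoters by window. The GC content was 74.0% for Col4a1, 73.7% for Col4a2 and 63.3% for Col4a4, against a median of 52.7% over all windows. A match is a description of the letters and no evidence of binding.

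The fibrillar genes were lower in kidney almost throughout, and the largest differences by the probe sets that stand for the genes were those of the type V chains Col5a2 and Col5a1. Type V collagen sits inside type I fibrils and sets their diameter. Col5a2, its α2 chain, had 74.8, 98.2 and 84.0 in kidney and 2201.0, 2449.5 and 2169.4 in the reference at 10 ng. Its log2 difference was −4.67 with an SE of 0.15 (limma, adjusted p = 1.41e-05). Col5a1, the α1 chain, had 107.9, 65.3 and 93.3 in kidney against 1401.3, 1721.5 and 1557.6, a log2 difference of −4.10 with an SE of 0.21 (adjusted p = 5.73e-05). All kidney arrays of both genes lay below all reference arrays and above background. Col5a3, the α3 chain, was dimmer, at 58.5, 21.0 and 32.7 in kidney with 2 arrays below background and 142.8, 102.9 and 134.0 in the reference, and its log2 difference was −1.75 with an SE of 0.36 (adjusted p = 0.00777).

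Type I collagen, the main protein of bone, tendon and scar, and its companion type III were measured at high signal in the reference and stayed well above background in kidney. Col1a2 had 857.6, 680.5 and 650.8 in kidney against 6764.5, 7126.8 and 5732.4 in the reference, a log2 difference of −3.16 with an SE of 0.17 (adjusted p = 6.01e-05). Col3a1 had 834.8, 969.1 and 914.0 against 5433.1, 5727.1 and 5545.2, a log2 difference of −2.62 with an SE of 0.12 (adjusted p = 3.98e-05). Kidney and reference arrays did not overlap for either gene. Col1a1, whose chain pairs with that of Col1a2 in type I collagen, had means of 3541 ± 181 in kidney and 9852 ± 756 in the reference (SD, n = 3 each). Its log2 difference was −1.47 with an SE of 0.13 (adjusted p = 0.000302). Col27a1, a fibrillar gene of cartilage and other tissues, was the 1 tested fibrillar gene not called, with 357.9, 263.6 and 282.6 against 275.5, 154.3 and 205.9, a log2 difference of 0.53 with a 95% interval of −0.091 to 1.14 (adjusted p = 0.117). It was called higher under quantile normalization (adjusted p = 0.0445), after centring each array (0.0372), with the mean of its probe sets (0.000533) and without replicate 1 of the reference (0.0479).

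The promoter windows of Col1a2 and Col3a1 are shown because these genes were lower together and their windows differ in make-up. The Col1a2 window lies at chr6:4505368-4505667 and the Col3a1 window at chr1:45311288-45311587, both on the plus strand, from the same RefSeq table and with capitals as before.
Col1a2: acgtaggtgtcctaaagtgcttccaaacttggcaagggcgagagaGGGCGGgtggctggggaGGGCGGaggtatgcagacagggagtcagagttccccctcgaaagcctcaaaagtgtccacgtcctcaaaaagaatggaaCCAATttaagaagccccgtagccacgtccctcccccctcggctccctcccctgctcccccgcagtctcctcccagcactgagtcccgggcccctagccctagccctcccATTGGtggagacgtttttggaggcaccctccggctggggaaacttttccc
Col3a1: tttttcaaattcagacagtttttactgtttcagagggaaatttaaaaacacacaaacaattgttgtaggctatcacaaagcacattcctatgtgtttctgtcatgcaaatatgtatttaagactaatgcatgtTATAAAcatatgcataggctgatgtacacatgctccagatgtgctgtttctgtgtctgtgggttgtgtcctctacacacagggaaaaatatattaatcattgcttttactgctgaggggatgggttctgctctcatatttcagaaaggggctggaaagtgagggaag
Col1a2 held 2 CCAAT and 2 GGGCGG matches at a GC content of 61.0%, whereas Col3a1 held 1 TATAAA match and a GC content of 37.7%.

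Markers of fibroblasts and pericytes summed to between 2295 and 2774 in kidney and to between 6010 and 7003 in the reference at 10 ng. Of 5 tested, 0 were higher and 3 lower, beside 27.1% higher and 35.6% lower over all genes tested. Pdgfra, with means of 712.1 in kidney and 3402.5 in the reference, was the largest part of the reference sum. Dcn and Thy1 were also lower, while Pdgfrb and Dpt were not called. All 6 genes of that list were above background on at least 1 array of each of these groups. Smooth muscle markers summed to between 2404 and 2733 against 8012 to 8587. Of 3 tested, 1 was higher and 2 lower, against the same shares of all genes. Acta2, with means of 1938 and 6792, makes up most of both sums, and Tagln was also lower. Myh11 was higher in kidney, with means of 233 and 37.0 and a log2 difference of 2.57. Osteoblast markers summed to between 47.9 and 177 against 976 to 1104, but 1 of the 3 named was tested, Dmp1, which was lower, and its signals of 1072.1, 995.6 and 935.6 make up most of the reference sum. The part of these cell types in the fibrillar result was not tested.

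**Figure D3:**
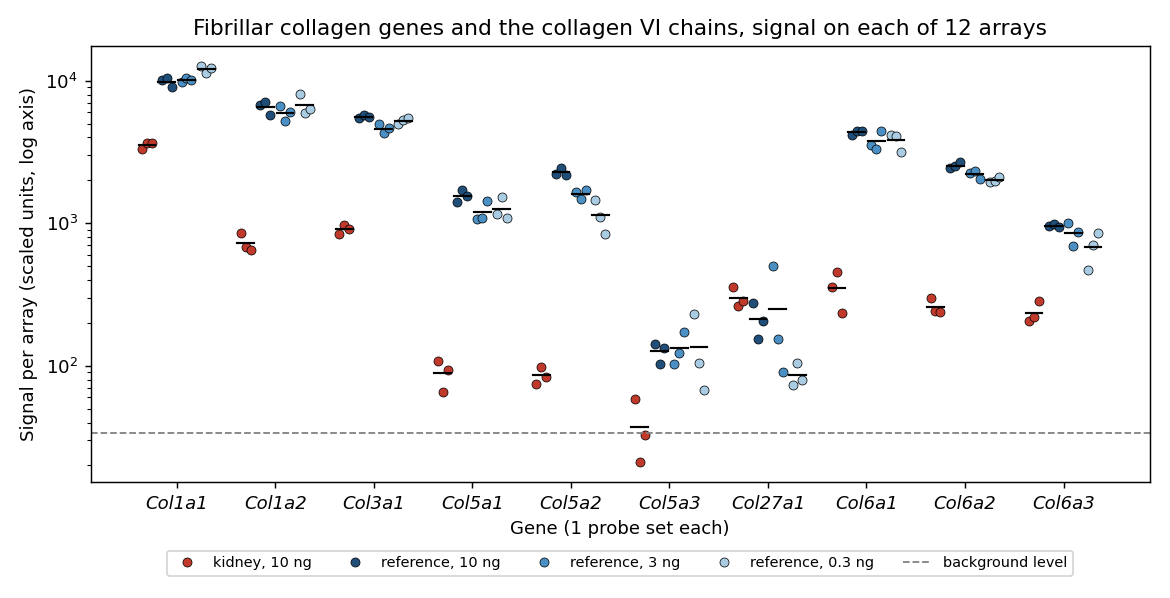
Signal on each array (log axis, scaled units) for the 7 tested fibrillar genes and the 3 tested collagen VI chains, with points coloured by RNA and input, black lines for group means of 3 arrays and a dashed line at the background level of 33.65. The 3 kidney points lie below the 9 reference points for 9 of the 10 genes, and Col27a1 is the exception.

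Type VI collagen forms beaded filaments around cells, and its 3 tested chains, of 5 in the set, were lower in kidney. Col6a1 had 360.0, 452.6 and 235.7 in kidney and 4160.9, 4463.5 and 4431.7 in the reference at 10 ng, a log2 difference of −3.67 with an SE of 0.25 (limma, adjusted p = 0.000138). Col6a2 had 299.7, 241.8 and 236.6 against 2425.8, 2516.9 and 2670.6, a log2 difference of −3.28 with an SE of 0.15 (adjusted p = 3.4e-05). All kidney arrays lay below all reference arrays for both. Col6a3, the longest chain of the filament, had means of 236 ± 40.8 and 960 ± 29.0 (SD, n = 3 each) and a log2 difference of −2.02 (adjusted p = 0.000221).

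The fibril-associated genes did not move as a block. These collagens bind to the surface of fibrils. Col12a1, found in tendon and dense connective tissue, had 59.7, 67.6 and 61.3 in kidney and 407.6, 365.8 and 470.5 in the reference, a log2 difference of −2.64 with an SE of 0.15 (adjusted p = 6.71e-05). Col16a1 had 56.2, 68.4 and 65.5 against 246.1, 274.3 and 349.2, a log2 difference of −2.12 with an SE of 0.18 (adjusted p = 0.000271). Their arrays did not overlap. Col14a1, also bound to fibrils, went the other way, with 308.1, 250.7 and 195.2 in kidney while all 3 reference arrays, at 8.1, 21.9 and 28.3, were below background. It was at least 7.34-fold higher in kidney (adjusted p = 0.000858), a bound set against the background level. Col20a1 had 67.8, 33.3 and 9.9 in kidney and 93.2, 122.6 and 126.7 in the reference, and was called lower by −1.82 (adjusted p = 0.0406). That call did not last, since the adjusted p was 0.062 under quantile normalization, 0.0598 with arrays centred, 0.0708 with no filter, 0.188 with all arrays in 1 fit and 0.0696 with the replicate block. It was also lost without kidney replicate 2 (0.0789) and without replicate 1, 2 or 3 of the reference (0.0763, 0.11 and 0.106), and the difference ranged from −2.37 to −1.18 over the sets without 1 array. Col22a1, known from tissue junctions, differed by −0.13 and was not called (adjusted p = 0.405), with a sign that turned under quantile normalization and centring.

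Away from the fibrils, a multiplexin and a transmembrane collagen were higher in kidney. Col15a1, a multiplexin of the basement membrane zone of vessels and muscle, had 157.4, 236.3 and 179.9 in kidney and 41.7, 7.3 and 29.9 in the reference, with 2 reference arrays below background. Its log2 difference was 2.90 with an SE of 0.54 (adjusted p = 0.00558), or 2.38 with signals raised to background. Col13a1, a transmembrane collagen, had 52.4, 212.0 and 168.0 in kidney and 9.0, 24.6 and 5.9 in the reference, all 3 below background. It was at least 3.66-fold higher (adjusted p = 0.0084). Kidney replicate 1 was the lowest of its 3 kidney arrays and still above the reference arrays. Col18a1, the other multiplexin and the source of endostatin, had 481.3, 732.5 and 491.4 against 441.2, 270.3 and 343.1. Its arrays did not overlap, yet its log2 difference of 0.69 was not called (95% interval 0.051 to 1.32, adjusted p = 0.0615); it was called under quantile normalization (0.0359), with arrays centred (0.0201), with the mean of its probe sets (0.0187) and without replicate 1 of the reference (0.0456).

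The network-forming collagens of type VIII, known from vessel walls and the cornea, were lower in kidney. Col8a1 had 1042.0, 989.8 and 1020.0 in kidney and 3223.2, 2920.6 and 3430.6 in the reference, a log2 difference of −1.64 with an SE of 0.12 (adjusted p = 0.000191). Col8a2 had 87.5, 57.6 and 33.6 against 150.6, 160.0 and 185.2, a log2 difference of −1.50 with an SE of 0.34 (adjusted p = 0.0108). The arrays of both groups were apart for both genes. Col7a1, the anchoring fibril collagen of skin, had all kidney arrays below background at 29.6, 12.3 and 2.9 against 107.7, 54.4 and 30.7. It was not called (adjusted p = 0.0505), with a bound of at least 1.68-fold lower, but it was called without kidney replicate 1 (0.024), with all arrays in 1 fit (0.0191) and with the replicate block (0.0046). A pseudocount of 16 (0.0392), array weights by group (0.05 as rounded) and the mean of all probe sets (0.042) also gave a call, the last on its 1 probe set. Col23a1, a transmembrane collagen, differed by −0.068 (adjusted p = 0.922) with overlapping arrays, and its sign turned under quantile normalization and centring. Its other tested probe set, given after the values were seen, differed by −1.47, with means of 30.4 in kidney and 84.7 in the reference.

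The 14 genes that did not pass the filter were Col2a1, Col9a1, Col9a2, Col9a3, Col10a1, Col11a1, Col11a2, Col17a1, Col19a1, Col24a1, Col25a1, Col26a1, Col6a4 and Col6a5. On the probe set that stands for each gene, the highest signal on any array was 117.7, for Col25a1 in kidney replicate 1, and 7 of them had no array above 50. Cartilage collagens make up 7 of the 14. Col2a1, the main fibrillar collagen of cartilage, reached 57.2 on that probe set, its partners Col11a1 and Col11a2 43.2 and 42.8, and the type IX chains 76.1, 54.8 and 93.2. Col10a1, made by hypertrophic chondrocytes, reached 30.4. Chondrocyte markers summed to between 500 and 764 in kidney and to between 2133 and 2417 in the reference at 10 ng. Of 2 tested, 1 was higher and 1 lower in kidney, beside 27.1% higher and 35.6% lower over all genes tested. Sox9 was lower, and its signals of 1993.4, 2221.7 and 2066.0 make up most of the reference sum. Hapln1 was higher in kidney, and the other genes of the list were not tested.

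Several probe sets read the same gene for 27 of the 42, and 17 genes had more than 1 tested. At equal input, 0 of these 17 had probe sets called in opposite directions and 0 had estimates of opposite sign. The size of the difference still depended on the probe set for Col1a1 and Col4a4, whose probe sets lay over 2 log2 units apart. The other Col1a1 probe set had 280.9, 287.9 and 262.8 in kidney and 4189.5, 5224.5 and 3919.9 in the reference, a log2 difference of −3.97 against −1.47 for the probe set that stands for the gene. The dimmest Col4a4 probe set, with means of 109 and 48.0, gave 1.23 and was not called (adjusted p = 0.0754), while the brighter ones gave 5.07 and 5.90. The second probe set of Col4a3 gave 6.26. Chosen after the values were seen, the other Col27a1 probe set had 732.7, 683.0 and 702.9 against 128.0, 161.0 and 199.0 and was called higher at 2.11 (adjusted p = 0.000328), and the other Col4a5 probe set was called lower at −0.63 (adjusted p = 0.0131). In the other comparisons, again 0 of the 17 had probe sets called in opposite directions. Estimates differed in sign for 10 of the 17 at 3 against 10 ng of reference and for 4 at 0.3 against 10 ng. In kidney against 0.3 ng this held for 1. Gaps over 2 log2 units were found for 2 genes in kidney against 3 ng and for 4 against 0.3 ng. Between 0.3 and 10 ng they were Col4a4 (−2.87 to 0.23) and Col23a1 (−1.30 to 0.91).

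**Figure D4:**
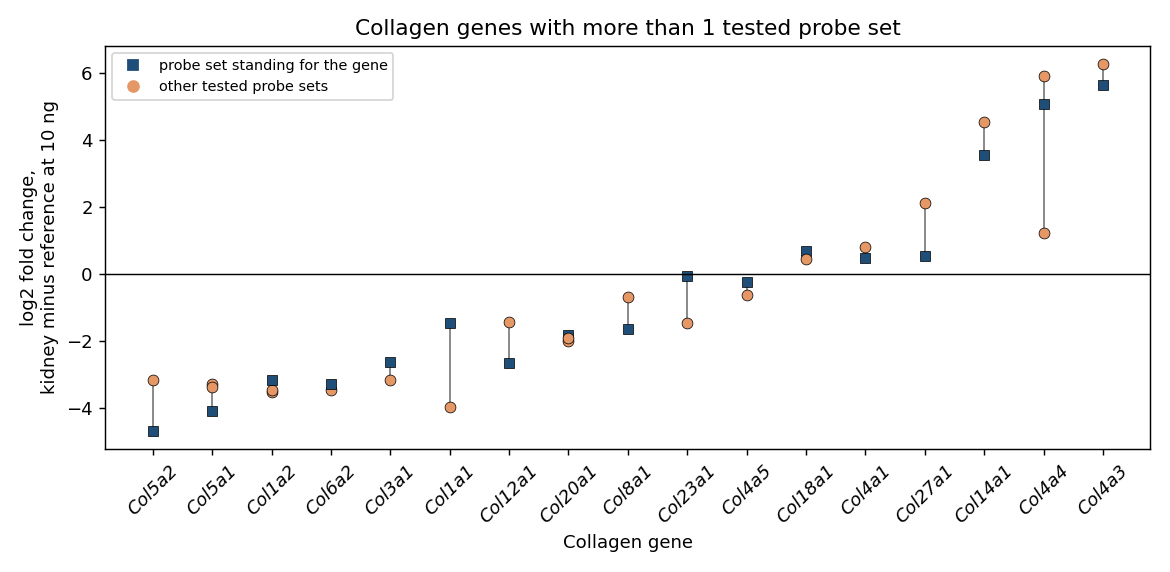
Log2 fold change, kidney minus reference at 10 ng (y axis), for the 17 collagen genes with more than 1 tested probe set (x axis). Squares are the probe set that stands for the gene, circles the others and the line joins them. The points of each gene lie on the same side of 0, and the widest gaps are those of Col4a4 (1.23 to 5.90) and Col1a1 (−3.97 to −1.47).

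Genes that make, trim, fix and read collagen were counted from lists of pathway genes. Of 17 tested genes for collagen modification and folding, 10 were lower in kidney and 2 higher, beside 35.6% lower and 27.1% higher over all genes tested. Their median log2 difference was −1.00 against −0.19 over all genes tested. P4ha2, a prolyl 4-hydroxylase that stabilises the triple helix, fell from 1102 ± 123 in the reference to 107 ± 17.8 in kidney (SD, n = 3 each), a log2 difference of −3.32. The prolyl hydroxylases P3h3 and P4ha3 were at least 4.86-fold and at least 2.74-fold lower. P3h2, the prolyl 3-hydroxylase that acts on type IV collagen, went the other way, with 3507.2, 4136.2 and 4182.8 in kidney and 42.6, 41.3 and 51.8 in the reference. All kidney arrays were far above the reference arrays, and the log2 difference was 6.33 with an SE of 0.15 (adjusted p = 6.15e-06). Ctage5, which helps load collagen for export, was higher at 1142 ± 125 against 516 ± 141, a log2 difference of 1.17.

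Of 9 tested genes for propeptide removal and cross-linking, 8 were lower in kidney and 0 higher, beside 35.6% lower and 27.1% higher over all genes tested, with a median of −1.97, or −1.68 with signals raised to background. Lox, the lysyl oxidase that starts the cross-links of fibrils, stood at 426 ± 196 in kidney and 9146 ± 308 in the reference, a log2 difference of −4.50. Loxl3, of the same family, differed by −2.81, and Bmp1, which removes the C-propeptide of procollagens, by −2.77. Against the same shares of all genes, 5 of 6 fibril-binding genes tested were lower and 1 higher, with a median of −1.43. Fmod, encoding the small proteoglycan fibromodulin, differed by −3.55, and the matricellular genes Thbs2 and Thbs1 by −2.57 and −1.46. Tnxb, encoding tenascin X, was at least 2.55-fold higher.

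Basement membrane partners split evenly, with 6 of 14 tested higher, 6 lower and a median of −0.46, beside 27.1% higher, 35.6% lower and −0.19 over all genes tested. The laminin chain genes Lama3 and Lama4 were at least 3.80-fold and at least 2.39-fold higher in kidney, and Lama1 differed by 2.87. Hspg2, the gene of perlecan, differed by −1.85, and both the nidogen gene Nid2 and the laminin gene Lamc1 by −1.33. Of 6 collagen receptors tested, 2 were higher and 3 lower, with a median of −0.22 beside the same all-gene values. Itga1, whose integrin α1 subunit binds type IV collagen, stood at 4178 ± 113 in kidney and 168 ± 71.6 in the reference, a log2 difference of 4.69. The endocytic collagen receptor gene Mrc2 differed by −3.30 and Ddr2, a receptor for fibrillar collagen, by −2.56. Ddr1 was called higher at 0.58 and lost the call without any 1 of the kidney arrays (adjusted p of 0.0597 to 0.0616), with no filter (0.07) and with the replicate block (0.0546). Itgb1, the shared β1 subunit, was called lower at −0.69 and lost the call with arrays centred (0.0763) and with all arrays in 1 fit (0.291).

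The same kidney arrays were also set against the reference at lower input. Because these comparisons share the kidney arrays, their values are given side by side and their likeness is no separate evidence. Against 3 ng of reference, 23 of the 28 tested genes were called, 7 higher and 16 lower, against 57.8% of all genes in either direction, 26.4% higher and 31.4% lower. Against 0.3 ng, 17 were called, 6 higher and 11 lower, against 37.6% of all genes in either direction, 20.9% higher and 16.7% lower. The collagen median was −1.48 against 3 ng and −0.95 against 0.3 ng, where all genes tested had −0.17 and 0.045. The kidney arrays lay wholly apart from the reference arrays for 7 genes above and 17 below at 3 ng, beside 69.6% of all genes in either direction, and for 7 above and 13 below at 0.3 ng, beside 57.7%.

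For the basement membrane genes, Col4a3 differed by 5.64 against 10 ng, 5.80 against 3 ng and 5.99 against 0.3 ng of reference. Col4a4 differed by 5.07 and 5.43 and was at least 81.6-fold higher against 0.3 ng, where all reference arrays (1.7, 5.1 and 24.1) were below background. Its 3 tested probe sets gave fitted differences of 2.04 to 7.94 against 0.3 ng. Col4a2 differed by 0.83, 0.98 and 1.71, all called. Col4a1 differed by 0.49, 0.71 and 0.67, the last not called (adjusted p = 0.117) unless replicate 3 at 0.3 ng was left out (0.0343) or all arrays were in 1 fit (0.0233). Col4a5 was not called at any input, at −0.24, −0.41 and 0.45, though against 3 ng it was called lower without reference replicate 3 (adjusted p = 0.0378) and under quantile normalization (0.045). Col4a6 differed by −1.47, −1.43 and −0.88, the last not called (adjusted p = 0.256), and its call against 3 ng was lost without kidney replicate 2 or 3 or reference replicate 2 or 3 (adjusted p of 0.0609 to 0.0693), with the replicate block (0.0634) and under quantile normalization (0.05).

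The brighter fibrillar genes and the type VI chains were called lower at each input. Col5a2 differed by −4.67, −4.18 and −3.64 in the same order, Col5a1 by −4.10, −3.71 and −3.78, and Col1a2 by −3.16, −3.03 and −3.20. Col3a1 differed by −2.62, −2.35 and −2.53 and Col1a1 by −1.47, −1.52 and −1.77. Among the type VI chains, Col6a1 differed by −3.67, −3.45 and −3.47, Col6a2 by −3.28, −3.08 and −2.95, and Col6a3 by −2.02, −1.84 and −1.47. The dim Col5a3 differed by −1.75, −1.80 and −1.67, and the last was not called (adjusted p = 0.0672) unless replicate 3 at 0.3 ng was left out (0.0462), all arrays were in 1 fit (0.0119) or the replicate block was used (0.0472). Col27a1, not called at 10 ng, nor at 3 ng unless reference replicate 1 was left out (adjusted p = 0.0212) or its probe sets were averaged (0.00262), was called higher against 0.3 ng at 1.77 (adjusted p = 0.00463). Its reference signals were 73.0, 104.2 and 79.7 at 0.3 ng and 275.5, 154.3 and 205.9 at 10 ng.

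Calls for several other genes differed between the reference inputs, and the tests between those inputs follow. Col14a1 was at least 7.34-fold higher against each input, and Col15a1 differed by 2.90, 2.43 and 2.36. Col13a1 was higher by 2.90 against 3 ng, or by 1.87 with signals raised to background, which 2 of the 3 reference arrays lay below. It differed by 0.89 against 0.3 ng, where it was not called (adjusted p = 0.336). Col8a2 differed by −1.50 against 10 ng and by −0.80 and 0.79 against 3 and 0.3 ng, neither called, though with the replicate block it was called lower against 3 ng (adjusted p = 0.0314). Col7a1 was called at least 2.80-fold lower against 3 ng (adjusted p = 0.0109) and Col22a1 lower by −0.76 (adjusted p = 0.0107), a call lost under quantile normalization, centring and all arrays in 1 fit (0.0855, 0.105 and 0.127). Against 3 ng, the Col13a1 call was lost without kidney replicate 2 or 3 or reference replicate 3 (adjusted p of 0.0505 to 0.0539), and the Col20a1 call (a difference of −2.09) without kidney replicate 2 or any 1 of the reference arrays (0.064 to 0.0994), under quantile normalization, centring or no filter (0.0525, 0.0502 and 0.0566) and with all arrays in 1 fit (0.13). Against 0.3 ng, the calls of Col12a1 (−2.36), Col16a1 (−1.47) and Col8a1 (−1.03) were lost without any 1 kidney array (adjusted p of 0.0637 to 0.087), and that of Col6a3 without kidney replicate 1 or 2 (0.0693 and 0.0682). With the replicate block the calls of Col16a1 (0.0685) and Col8a1 (0.083) were lost, as were that of Col8a1 with no filter (0.0609) and that of Col12a1 with the mean of its probe sets (0.128). Col7a1, not called there (adjusted p = 0.0567), was called without kidney replicate 1 (0.0355), under quantile normalization (0.0439) and with arrays centred (0.0373). It was also called with a pseudocount of 16 (0.043), with all arrays in 1 fit (0.0161) and with the mean of all probe sets (0.0427). Col7a1 has 1 probe set, so that averaging left its estimate unchanged.

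The last question was whether the collagen genes read the same at less input of the same reference RNA. Between 3 and 10 ng, limma called 0 of the 28 tested collagen genes and 0% of all genes tested (0 of 12820). At an unadjusted p below 0.05 there were 2 collagen genes, and 2736 of the 27022 probe sets. The 3 ng arrays lay wholly apart from the 10 ng arrays for 5 of the 28 genes, 17.9% against 17.6% of all genes, so this share was near that of all genes. The collagen median was −0.15 (3 minus 10 ng) and that of all genes −0.047. The 95% interval, not adjusted for the number of tests, reached a median of 0.58 to each side of the estimate. It stayed under 1 log2 unit to each side for 21 of the 28 genes, and for the rest it spanned a 2-fold change or more. Calls used adjusted p-values, so a 2-fold change could go uncalled even for those 21 genes. By size, Col8a2 stood lowest among genes above background at −0.71 (adjusted p = 0.52), and Col7a1 and Col22a1 highest at 0.69 and 0.63 (adjusted p = 0.618 and 0.365). The fitted value of Col14a1, −0.73, compared 2 groups below background and is no fold.

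Between 0.3 and 10 ng, 0 of the 28 were called, while 0.554% of all genes were (71 of 12820, with 0.0078% higher and 0.546% lower). At an unadjusted p below 0.05 there were 7 collagen genes, and 4175 of the 27022 probe sets. Arrays lay wholly apart for 11 of the 28, 9 below and 2 above, which is 39.3% against 25.2% of all genes. The collagen median was −0.30 (0.3 minus 10 ng), or −0.20 with signals raised to background, against −0.21 over all genes. The 95% intervals reached between 0.51 and 3.00 to each side with a median of 0.86, and stayed under 1 for 15 of the 28 genes.

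The 2 largest differences in each direction at 0.3 ng were those of dim genes, and none was called. Col8a2 had 24.8, 23.7 and 48.1 at 0.3 ng against 150.6, 160.0 and 185.2 at 10 ng, and its log2 difference of −2.29 had an adjusted p of 0.0534. The groups did not overlap. It passed the threshold under a pseudocount of 16, with all arrays in 1 fit, with the mean of all probe sets of each gene and without replicate 3 at 0.3 ng. Col8a2 has 1 probe set, so averaging left its estimate unchanged at −2.29. Col4a4 had 1.7, 5.1 and 24.1 against 69.8, 82.6 and 82.4, a level at least 2.32-fold lower with all 0.3 ng arrays below background (adjusted p = 0.118). The fitted log2 differences of its 3 tested probe sets ran from −2.87 to 0.23. The probe set at 0.23 had means of 26.7 at 0.3 ng and 22.4 at 10 ng, both under the background level. Col13a1 had 117.9, 62.9 and 36.3 against 9.0, 24.6 and 5.9, at least 1.92-fold higher (adjusted p = 0.171), and Col23a1 differed by 0.91 (adjusted p = 0.623), its replicate 2 at 234.7 standing above the others at 51.8 and 40.3. Among the bright genes, Col1a1 had 12728.2, 11386.9 and 12224.3 at 0.3 ng and 10083.8, 10464.6 and 9007.1 at 10 ng, a log2 difference of 0.30 with a 95% interval of −0.23 to 0.83 (adjusted p = 0.547). Col3a1 differed by −0.086 and Col1a2 by 0.042, with overlapping arrays. Col5a2 had 1458.7, 1104.9 and 836.8 against 2201.0, 2449.5 and 2169.4, groups that did not overlap, and differed by −1.04 without being called (adjusted p = 0.177). Col4a2 differed by −0.89 (adjusted p = 0.231). Col27a1, of middling signal, had 73.0, 104.2 and 79.7 against 275.5, 154.3 and 205.9, groups that did not overlap. It differed by −1.25 without being called, and its other tested probe set by −1.80. The ratio of 3′ to 5′ signal on the reference arrays lay between 1.10 and 1.19 for the Gapdh control and between 3.47 and 3.96 for the actin control.

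**Figure D5:**
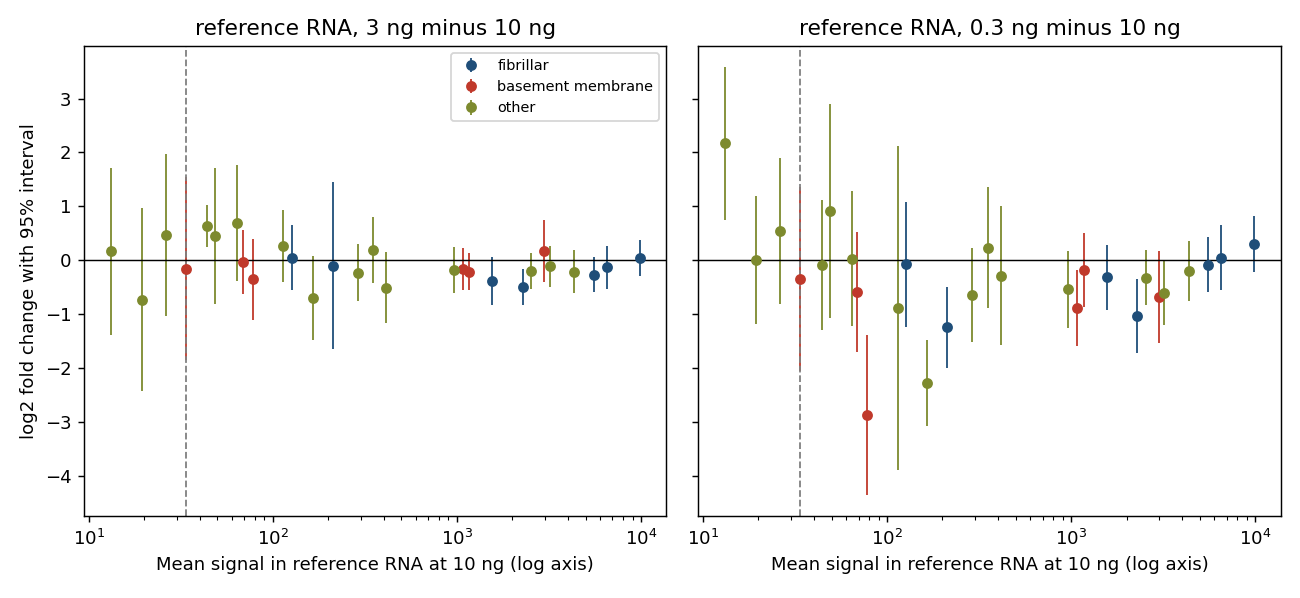
Log2 fold change of the 28 tested collagen genes at 3 ng (left) and 0.3 ng (right) minus 10 ng of reference RNA (y axis), against the mean signal at 10 ng (x axis, log), coloured by class. Points are limma's estimates with 95% intervals and the dashed line is the background level of 33.65. None of the points was called, and the intervals at 0.3 ng are wider, with a median reach of 0.86 to each side against 0.58.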

How the data were processed

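The files hold a deposited intensity on a linear scale for each probe set on each array. How the authors made it (software, background correction, amplification, labelling) is not given in the sources used here. From the values, each array was scaled so that its 2% trimmed mean is 500. Groups, inputs and replicate numbers came from the sample titles. The collagen genes and the pathway and marker lists were chosen with earlier results of these data known.

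Of 45101 probe sets, 64 controls were left out, and 27022 whose highest group mean of log2 values lay above the 40th percentile (a signal of 65.4) were tested. Log2 values were taken after adding 3.9, so fold changes of dim genes are understated. The brightest probe set by mean log2 value, among those naming a gene and no other, stood for that gene. Symbols came from the platform annotation (34945 probe sets with 1 symbol, 932 with several, 9160 with none). Each comparison was fitted in R 4.3.3 with limma 3.58.1 on the 6 arrays it compares, without covariates, and p-values, all two-sided, were adjusted by Benjamini-Hochberg over the 27022 probe sets at a threshold of 0.05. The fit takes the same variance for both groups, which the wider spread at 0.3 ng does not meet. An exact permutation test of 3 against 3 arrays cannot go below 0.1. A fold against a group below background on all arrays is the bright group's geometric mean over the background level of 33.65, given as "at least". The number of arrays limits precision. Scripts were tested on simulated data.

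Tested genes were named as follows: at equal input all of them, with values on each array for the basement membrane genes and the 4 called genes with the largest change per direction in the other classes; at lower reference input those called, or the 2 largest changes per direction; probe sets over 2 log2 units apart; and up to 3 called genes per direction in each pathway list. Further collagen genes given beside these are for description. Promoter windows came from RefSeq on GRCm38.p6. Alternatives were the normalization, pseudocount, filter, variance model, probe set choice, a 2-fold minimum, a replicate block and leaving out each array.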

Additional observations from a re-analysis of the deposited data

How the results depend on the processing

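At equal input the count of called collagen genes was 22, ranged from 20 to 26 over the alternatives that kept all arrays and from 20 to 23 when 1 array was left out. Against 3 ng of reference it was 23, with 20 to 25 over those alternatives and 20 to 23 without 1 array, and against 0.3 ng 17, with 16 to 20 and 13 to 19. Between reference inputs of 3 and 10 ng it was 0 under each leave-one-out set. Between 0.3 and 10 ng it was 0, but 1 with a pseudocount of 16 (Col8a2), 4 with all arrays in 1 fit and 1 with the mean of all probe sets of a gene, and 0 to 2 without 1 array, the 2 being Col4a4 (−3.53) and Col8a2 (−2.58) without replicate 3 at 0.3 ng. Signs turned only for genes that were not called. At equal input Col22a1 was 0.090 under quantile normalization and 0.12 with arrays centred, Col23a1 was 0.16 and 0.18 under the same settings and −0.45 to 0.50 without 1 array, and Col4a5 was 0.0026 with arrays centred. Against 0.3 ng, Col22a1 was −0.58 to 0.26 without 1 array. Between 0.3 and 10 ng, Col23a1 was −0.19 with the mean of all probe sets. The cause of these changes was not tested. Same-numbered arrays did not deviate together, so the numbers were not taken as pairs; with the replicate number as a block 21 genes were called at equal input (20 of them shared with the fit without it), 23 against 3 ng and 16 against 0.3 ng, and 0 between reference inputs. Over all probe sets the median log2 difference at equal input was −0.34, −0.09 with arrays centred and −0.22 under quantile normalization. Genes with a group below background, such as Col13a1 and Col7a1, have a bound and no measured fold.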
